A study of Homo sapiens with 14 samples.

Results

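Metal-response genes were examined in KLF4 ChIP-seq of BEAS-2B, an established human bronchial epithelial cell line. The set was given by name and held 9 of the 62663 annotated genes, of which 20033 are protein-coding. It comprised the 8 metallothionein genes MT2A, MT1E, MT1M, MT1A, MT1F, MT1G, MT1H and MT1X of the chromosome 16 cluster, and MTF1 on chromosome 1. A KLF4 peak belonged to a gene if its summit lay from 5 kb upstream of the gene start to 2 kb past the gene end, and a peak in overlapping windows was counted once across the cluster. The 4 libraries were WT control, WT As3+, Nrf2 KO control and Nrf2 KO As3+, with As3+ (arsenite) given at 1 µM for 6 h. Nrf2 KO cells came from CRISPR-Cas9 cutting in Nrf2 and were grown from single blasticidin-selected colonies, and the WT cells were colonies that still expressed Nrf2. Each condition had 1 library, so differences between conditions have no replicate check and were not tested.

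Metallothioneins are small, cysteine-rich proteins that bind zinc, copper and cadmium, and their genes are switched on by metals. MTF1 is the zinc-finger transcription factor that senses zinc and binds metal response elements (MREs) in metallothionein promoters. KLF4 is another zinc-finger factor, which binds CACCC-type words, and Nrf2 drives antioxidant genes through the antioxidant response element (ARE).

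Printed below are 4 stretches of GRCh38 just before the transcription start, to show where metal response words lie in these promoters. Capitals mark each match to the MRE words TGCACNC or TGCGCNC on either strand, and every stretch reads 5′ to 3′ on the strand of its gene. The MT2A stretch lies at chr16:56608334-56608583 on the plus strand and carried a peak in 2 libraries. MT1H (chr16:56669564-56669813, plus strand) and MT1X (chr16:56682220-56682469, plus strand) are shown as MRE-rich promoters with no summit in the stretch. MTF1 (chr1:37859593-37859842, minus strand) is shown because it had no MRE word. These 4 stretches are the 250 bases before the start in the RefSeq promoter table (GRCh38.p14), which matched 4 of the 9 genes and did not list MT1A, MT1E, MT1F, MT1G or MT1M.
MT2A: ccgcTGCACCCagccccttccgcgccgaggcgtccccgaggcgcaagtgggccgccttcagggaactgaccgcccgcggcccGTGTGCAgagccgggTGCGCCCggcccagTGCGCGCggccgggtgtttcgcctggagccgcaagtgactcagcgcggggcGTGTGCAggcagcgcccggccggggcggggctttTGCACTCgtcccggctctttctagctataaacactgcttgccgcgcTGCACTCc
MT1H: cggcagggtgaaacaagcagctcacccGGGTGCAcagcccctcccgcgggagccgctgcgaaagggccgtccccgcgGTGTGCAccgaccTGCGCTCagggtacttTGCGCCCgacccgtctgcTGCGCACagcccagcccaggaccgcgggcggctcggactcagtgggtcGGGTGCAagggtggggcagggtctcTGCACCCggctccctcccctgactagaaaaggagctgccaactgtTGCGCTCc
MT1X: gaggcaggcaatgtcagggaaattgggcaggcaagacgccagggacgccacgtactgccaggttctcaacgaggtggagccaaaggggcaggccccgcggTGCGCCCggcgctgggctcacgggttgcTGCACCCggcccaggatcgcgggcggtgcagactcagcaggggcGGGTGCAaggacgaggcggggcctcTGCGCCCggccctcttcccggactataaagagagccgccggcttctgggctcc
MTF1: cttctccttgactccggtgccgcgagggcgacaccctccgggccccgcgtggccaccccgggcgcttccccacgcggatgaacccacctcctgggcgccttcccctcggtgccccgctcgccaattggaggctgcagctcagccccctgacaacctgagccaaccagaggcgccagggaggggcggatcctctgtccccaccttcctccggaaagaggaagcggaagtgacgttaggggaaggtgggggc

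All 8 metallothionein genes had at least 1 MRE word from 250 bases before to 50 bases after their canonical start in GRCh38, and MTF1 had 0. MT2A and MT1H each held 8 such words, a number reached by 0.0199% of the 35116 RefSeq promoters of the same length. MT1F and MT1G held 6 (0.0740% of promoters reach this), MT1X held 4 (0.601%), MT1E and MT1M held 3 (2.30%), and MT1A held 1 (29.6%). With a G required as the next base (TGCACNCG or TGCGCNCG), MT2A kept 6 words, MT1H 4, MT1F 3 and MT1G 1, while MT1X (4), MT1E (3), MT1M (3) and MT1A (1) lost none. The printed MT2A stretch also has the ARE word TGACTCAGC (a match to TGACNNNGC) from 104 to 96 bases before the start, and the AP-1 word TGACTCA lies inside it. MT1X has an ARE match of other letters from 243 to 235 bases before its start, and 13.4% of all promoters hold an ARE word. The KLF words CCACACCC and CCACGCCC, present in 8.05% of all promoters on either strand, were found at MT1H only among the 9 starts. A match describes letters and not a bound site.

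In WT control cells no KLF4 peak was listed at any of the 9 genes, and in WT As3+ cells 7 peaks were listed, 4 at the metallothionein genes and 3 at MTF1. The Nrf2 KO libraries stood the other way round. The Nrf2 KO control list had 13 peaks, 11 at the metallothionein genes and 2 at MTF1, and the Nrf2 KO As3+ list had 0. When the −log10 q had to reach 5, the metallothionein counts fell to 1 in WT As3+ and 3 in Nrf2 KO control cells. Those of MTF1 were then 1 and 2. Among the strongest 751 peaks of the WT As3+ and Nrf2 KO control lists they were all 0. The share of all genes that keep a peak under that cut was not counted. The WT control list, which is of that size, had a peak at 2.36% of protein-coding genes. The 0 counts under that cut are therefore not read as a result about the members. Genes with a peak numbered 0, 6, 8 and 0 of 9 in the order WT control, WT As3+, Nrf2 KO control and Nrf2 KO As3+. MT1X, a metallothionein 1 gene (chr16:56682470-56684196, plus strand), was the only member with no peak in any list.

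**Figure D1:**
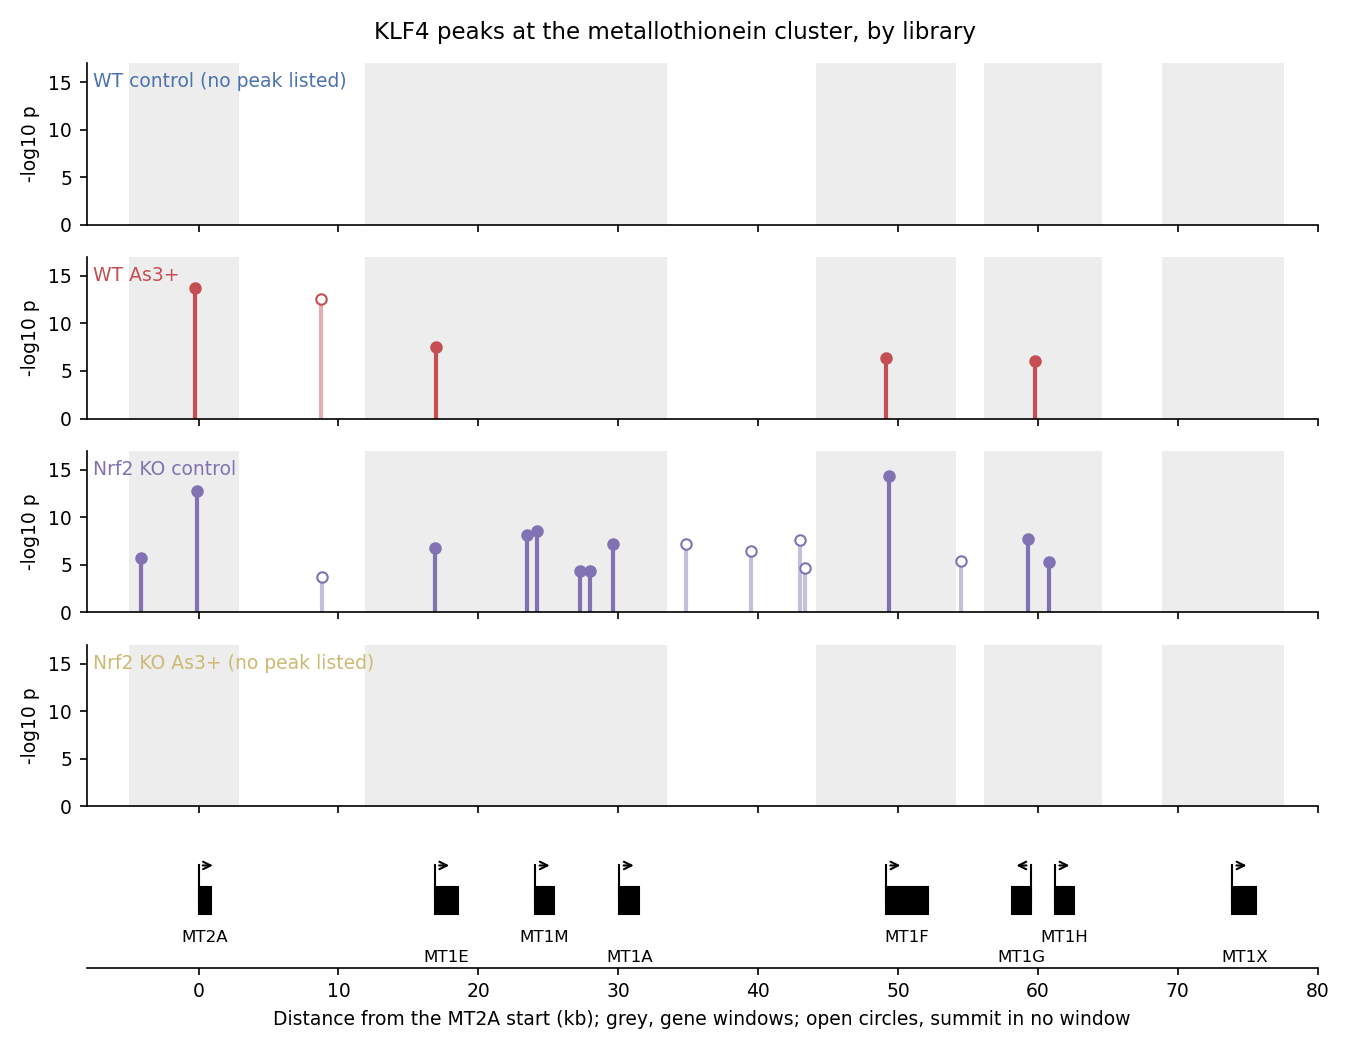
KLF4 summits across the metallothionein cluster, by distance from the MT2A start in kb, with 1 row per library, the −log10 p as height and the genes drawn to scale. Filled circles lie in the grey gene windows and open circles in none, and the WT control and Nrf2 KO As3+ rows are empty.

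These counts follow the size of the lists. The 4 lists hold 751, 29870, 76545 and 130 peaks, and the share of all protein-coding genes with a peak in the same kind of window was 2.36% in WT control, 64.9% in WT As3+, 79.5% in Nrf2 KO control and 0.429% in Nrf2 KO As3+. The 6 of 9 members in WT As3+ cells (66.7%, exact 95% binomial interval 29.9 to 92.5) and the 8 of 9 in Nrf2 KO control cells (88.9%, interval 51.8 to 99.7) are close to these backgrounds, and 0 of 9 allows a share of up to 33.6%. Metallothionein genes are short, with windows of at most 9968 bp. Among the 1626 protein-coding genes with windows no longer than that, 30.8% had a peak in WT As3+ and 45.1% in Nrf2 KO control cells, beside 62.5% (interval 24.5 to 91.5) and 87.5% (interval 47.4 to 99.7) of the 8 metallothionein genes. Windows of neighbouring metallothionein genes overlap and form 5 regions on chromosome 16, so the members are not independent and these intervals are too narrow. The pattern of a peak in WT As3+ and Nrf2 KO control cells only was shared by MT2A, MT1E, MT1F, MT1G, MT1H and MTF1, and by 12003 of the 20033 protein-coding genes (59.9%). MT1M and MT1A had peaks in Nrf2 KO control cells only, as 17.1% of these genes did, and MT1X belonged to the 17.9% with none. Among genes with short windows these patterns were found in 28.8%, 15.9% and 53.2%.

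**Figure D2:**
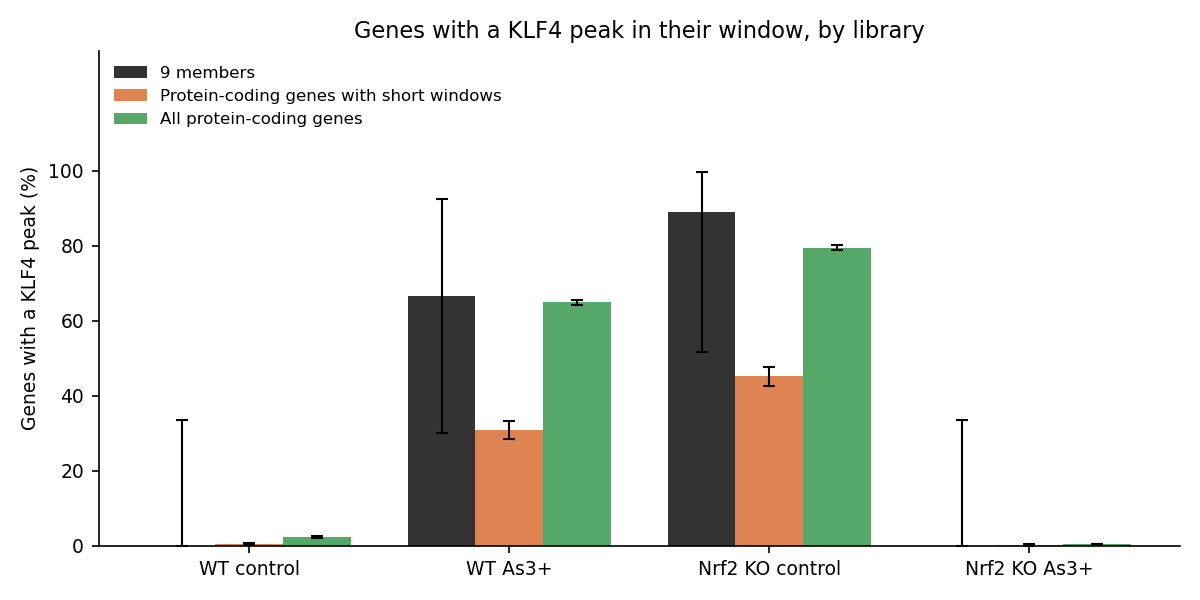
Share of genes with a KLF4 peak in each library, in percent, for the 9 members, protein-coding genes with windows as short as those of the metallothionein genes, and all protein-coding genes. The members' bars lie near those of all protein-coding genes. They lie above those of genes with short windows in WT As3+ (30.8%) and Nrf2 KO control cells (45.1%). Error bars are exact 95% binomial intervals, which cover counting error only.

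Density per length gives the same order. The metallothionein windows cover 56.6 kb together and held 7.06 peaks per 100 kb in WT As3+ cells, beside 1.67 for the whole of chromosome 16 and 0.967 for the genome. In Nrf2 KO control cells the windows held 19.4 peaks per 100 kb, beside 4.23 for chromosome 16 and 2.48 for the genome. These windows lie at gene starts, and the part of that in the density was not tested.

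MT2A, the human metallothionein 2 gene (chr16:56608584-56609497, plus strand), carried the strongest peak of the cluster in WT As3+ cells by p-value. It ran from 56608084 to 56608644 over the promoter and the start, with its summit 223 bp upstream. Fold enrichment, the ratio of fragments at the summit to the local background with 1 added to each, was 5.85, and the deposited −log10 p was 13.7. Behind this stood 24 fragments (95% Poisson interval 15.4 to 35.7) over a background of 3.27, and 91.5% of the peaks of that list had a lower −log10 p. The Nrf2 KO control library had an overlapping MT2A peak with 17 fragments (9.90 to 27.2) over a background of 1.60, a fold of 6.93 and a −log10 p of 12.8. These counts are not scaled to library totals, which are unknown, so they do not compare the conditions. The Nrf2 KO control summit lay 102 bp upstream, inside the ARE word of the printed stretch. The WT As3+ summit fell in a gap between the MRE words. A further Nrf2 KO control peak 4143 bp upstream of MT2A had 8 fragments and a fold of 4.35.

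MT1E, a metallothionein 1 isoform gene (chr16:56625475-56627112, plus strand), had weaker peaks in the same 2 libraries. The WT As3+ summit lay 217 bp upstream of the canonical start and the Nrf2 KO control summit 269 bp upstream. An alternative transcript of MT1E begins farther upstream, so the WT As3+ summit is at the same time 89 bp inside the annotated gene. The fold was 4.33 with 15 fragments (8.40 to 24.7) in WT As3+ cells and 4.58 with 11 fragments (5.49 to 19.7) in Nrf2 KO control cells. Both peaks had a −log10 q under 5.

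MT1F (chr16:56657731-56660698, plus strand), another member of the metallothionein 1 group, had the highest fold of any member peak, in Nrf2 KO control cells. That peak, 43 bp upstream of the canonical start, had a fold of 8.58, a −log10 p of 14.3 and 14 fragments (7.65 to 23.5) over a background of 0.749, and 97.7% of that list had a lower −log10 p. In WT As3+ cells the MT1F summit was 233 bp upstream and 5 bp from the start of the longer annotated gene, with a fold of 4.64, a −log10 p of 6.39 and 9 fragments (4.12 to 17.1). These fragment counts are likewise not scaled to library totals. The local background was 1.53 times the lowest value of the library in each of the 2 libraries.

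MT1G and MT1H lie head to head, and a single WT As3+ peak fell in the windows of both. It was centred 306 bp upstream of MT1G (chr16:56666730-56668065, minus strand) and had 8 fragments (3.45 to 15.8), a fold of 4.59 and a −log10 p of 6.08. In Nrf2 KO control cells the same place was touched by a peak with its summit in MT1G intron 1, 210 bp past the start, which had 8 fragments and a fold of 5.60. A separate Nrf2 KO control peak 410 bp upstream of MT1H (chr16:56669814-56671129, plus strand) had 6 fragments (2.20 to 13.1) and a fold of 4.26. Among peaks inside the member windows and nearest to a member's own start, it had the fewest fragments.

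MT1M and MT1A stand next to each other in the cluster, and neither had a WT As3+ peak. MT1M (chr16:56632659-56633981, plus strand) had Nrf2 KO control peaks 584 bp upstream, with a fold of 5.72, and 135 bp past the start in intron 1, with a fold of 5.97, each with 9 fragments. MT1A (chr16:56638666-56640087, plus strand) had one 459 bp upstream with a fold of 5.30 and 8 fragments. The remaining 2 peaks in their windows lay at MT1JP, annotated as a long non-coding RNA gene, each with 5 fragments and a fold of 3.69, and 1 of them was shared by the MT1M and MT1A windows.

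MTF1, the metal-sensing activator of these genes (chr1:37809574-37859592, minus strand), is 50019 bp long and had peaks near its start and past its end. In WT As3+ cells a peak in intron 1, 188 bp past the start, had 15 fragments (8.40 to 24.7) over a background of 1.73, a fold of 5.86 and a −log10 p of 10.2. Another, 590 bp upstream, had 14 fragments over a background of 3.47 and a fold of 3.36, and an unnamed gene, ENSG00000230955, starts closer to its summit, at 515 bp. In Nrf2 KO control cells 1 peak of 999 bp overlapped both of them, with its summit 407 bp upstream, 20 fragments (12.2 to 30.9), a fold of 7.64 and a −log10 p of 15.3, above 98.3% of that list. Past the end of the gene lay a further peak in each of these libraries. Its fold was 4.06 with 14 fragments in WT As3+ cells and 5.82 with 15 fragments in Nrf2 KO control cells. These summits are 477 and 845 bp from the nearest annotated start, that of YRDC, so they cannot be assigned to MTF1 rather than to its neighbour.

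**Figure D3:**
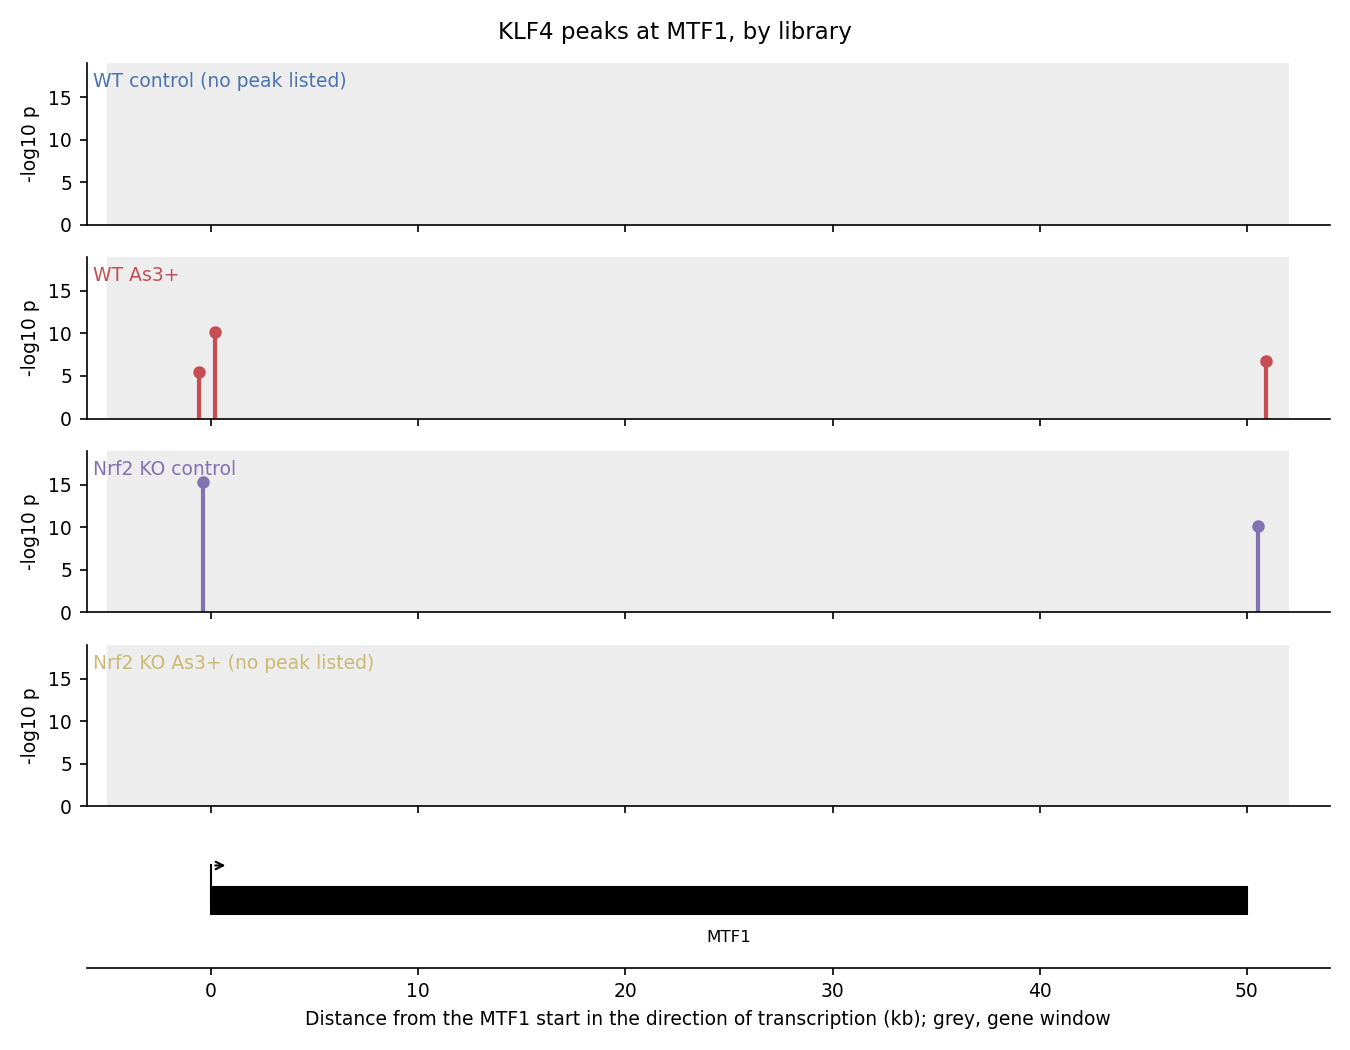
KLF4 summits along the MTF1 window (grey), by distance from the MTF1 start in kb in the direction of transcription, with 1 row per library and the −log10 p as height. Peaks sit at the start and past the end of the gene in the WT As3+ and Nrf2 KO control rows only.

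**Figure D4:**
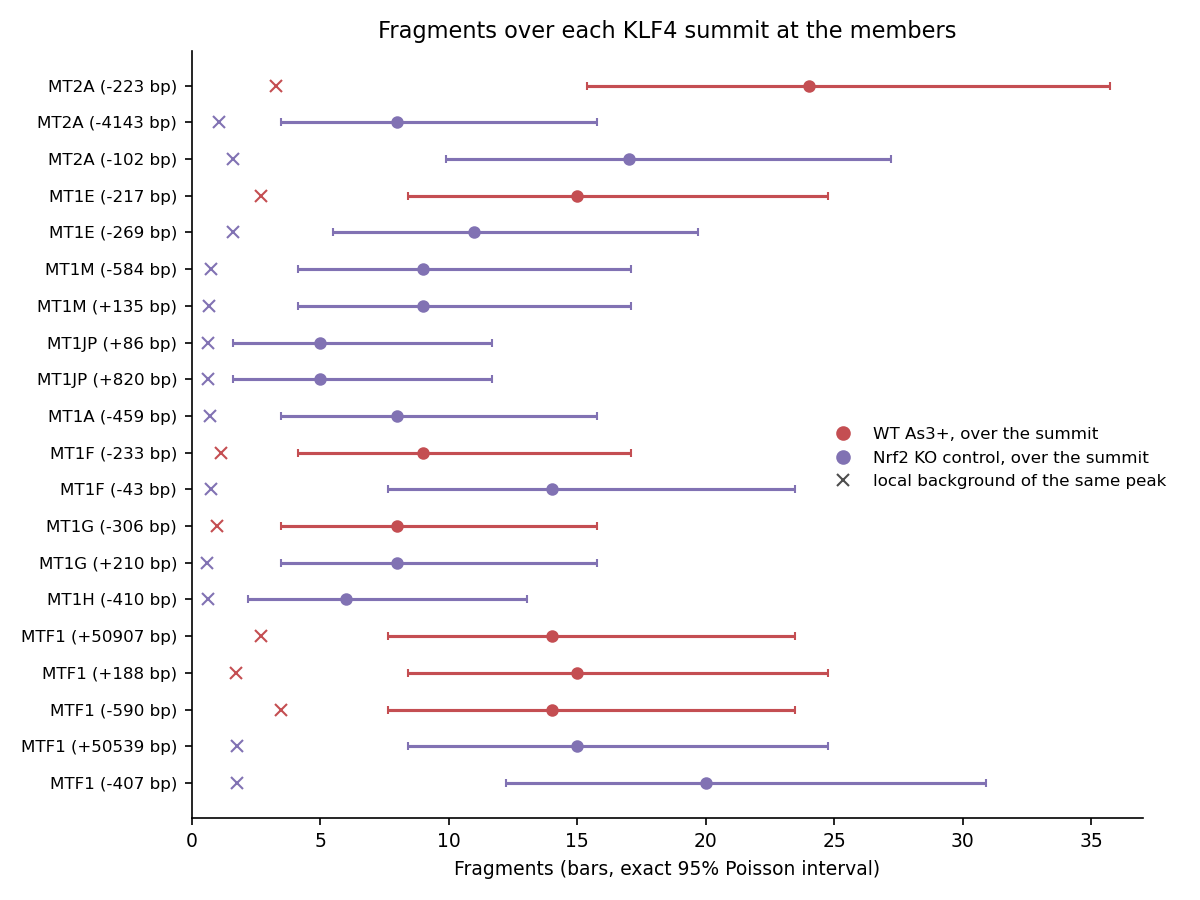
Fragments over the summit of each member peak (points), with exact 95% Poisson intervals that cover counting error only, and its local background (crosses); labels give the nearest start and the distance from it in bp. The highest values are 24 at MT2A in WT As3+ and 20 at MTF1 in Nrf2 KO control cells.

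All 7 WT As3+ peaks overlapped a Nrf2 KO control peak by at least 1 bp. The share of the whole WT As3+ list that does so was not counted. By gene, a peak in these libraries only was found at 59.9% of protein-coding genes. That is a share of genes and not of overlapping peaks. The overlap is not read as particular to the members. The empty lists leave room for weaker enrichment. The lowest local background was 1.90 fragments in WT control and 1.64 in Nrf2 KO As3+ cells, beside 0.757 in WT As3+ and 0.491 in Nrf2 KO control cells. The lowest listed −log10 p was 4.64 and 5.03 in the former and 3.17 and 2.87 in the latter. From these values, the highest fold that could go unlisted was 3.44 in WT control, 2.96 in WT As3+, 2.79 in Nrf2 KO control and 3.77 in Nrf2 KO As3+ cells, for a peak of at least 200 bp at any background from the lowest up. The WT As3+ folds at the metallothionein genes, 4.33 to 5.85, were all above the limit of WT control cells. At MTF1 the folds of 5.86 and 4.06 were above it and that of 3.36 was below. Of the 13 Nrf2 KO control peaks, the 2 at MT1JP, with a fold of 3.69, were below the limit of Nrf2 KO As3+ cells, and the other 11, with folds from 4.26 to 8.58, were above it. These folds are point values of listed peaks, from 5 to 24 fragments each, and their counting error was not carried into the comparison. It therefore does not show that a site was unoccupied in the empty lists. An enrichment below the limits at the 9 genes in WT control or Nrf2 KO As3+ cells could go unlisted. The fold of a site can differ between libraries of unlike background, and the part of that difference in the counts was not tested.

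MRE words were present near some metallothionein summits and near none of those of MTF1. Within 200 bp windows centred on the summits, an MRE word was present in 3 of the 7 WT As3+ peaks, beside 27.6% of that whole list, and in 8 of the 13 Nrf2 KO control peaks, beside 28.9%. The MT2A window held 5 MRE words in each library, the MT1F window 1 in WT As3+ and 6 in Nrf2 KO control cells, and the 5 MTF1 windows 0. The windows of MT1G in both libraries, of MT1E in Nrf2 KO control cells and of the upstream MT1M peak also held 0. In windows of 100 bp an MRE word was present in 1 of the 7 WT As3+ peaks, that of MT2A, beside 14.5% of the list, and in 8 of the 13 Nrf2 KO control peaks, beside 15.8%. KLF words were present in 0 of 7 (10.3% of the list) and 1 of 13 windows (9.27%), the last at MT1H. The ARE word was present in 0 of 7 and 1 of 13 windows, beside 9.36% and 9.17%, and its only match was at the Nrf2 KO control summit of MT2A.

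**Figure D5:**
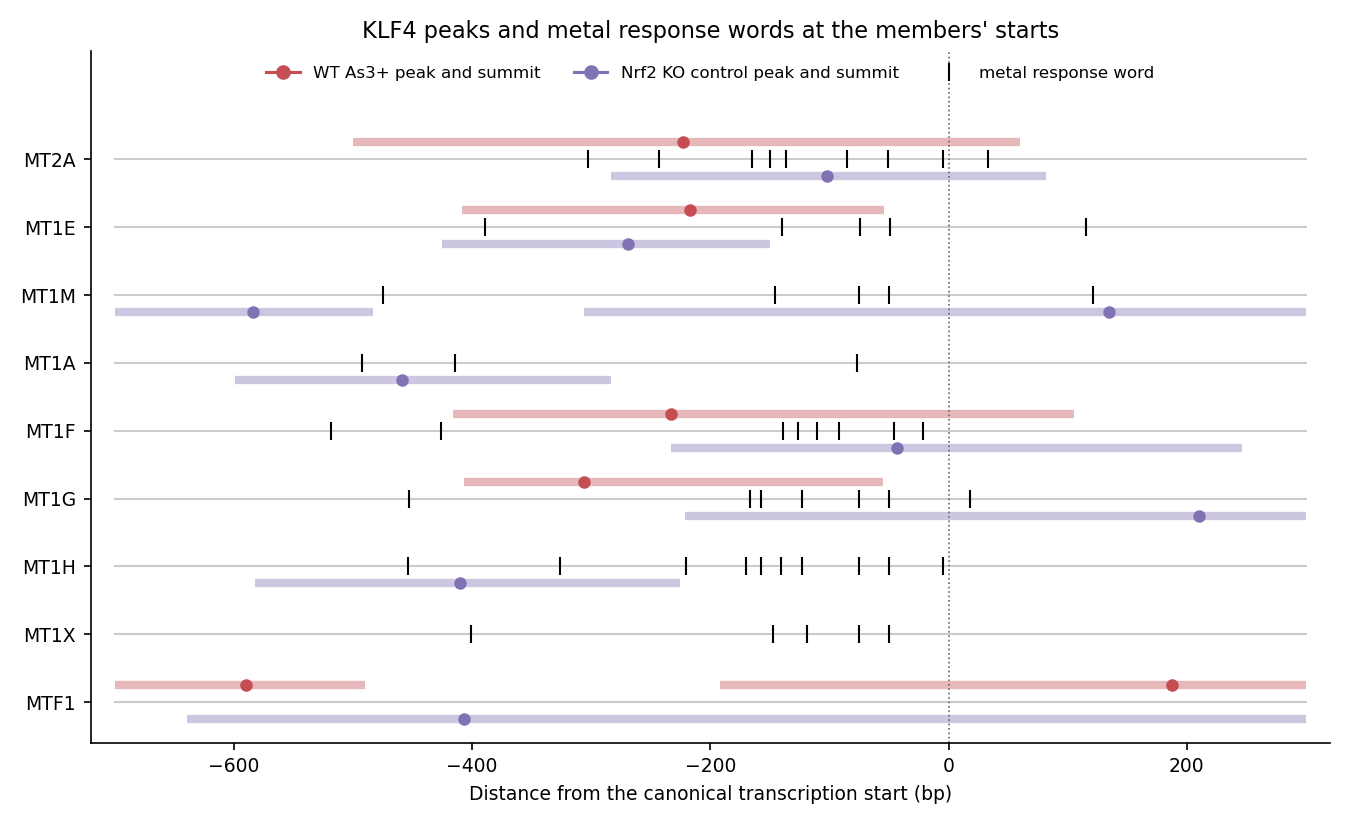
KLF4 peaks (bars), their summits (points) and MRE words (ticks) by distance in bp from the canonical transcription start of each of the 9 genes; farther peaks are not drawn. The 4 metallothionein summits of WT As3+ cells lie 217 to 306 bp upstream, MT1X has words and no peak, and MTF1 has peaks and no word near its start.

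Genes of related function were set beside the members. Of 9 other metallothionein loci, pseudogenes among them, 1 had a peak in WT As3+ (11.1%) and 6 in Nrf2 KO control cells (66.7%). The other libraries had 0. The shares were 30.8% and 45.1% of protein-coding genes with short windows, and 62.5% and 87.5% of the metallothionein members. Windows of these other loci can overlap member windows, so the groups are not separate. The highest Nrf2 KO control fold in the MT1JP window, 5.97, was that of the MT1M intron 1 peak. The locus with a WT As3+ peak was MT1L, with its summit 222 bp upstream and 17 fragments (9.90 to 27.2). Its −log10 p was 12.5, and its fold of 6.78 was above that of all member peaks in that library. MT1L lies in the cluster but outside every member window. Of the 10 SLC30A zinc exporters 8 had a peak in WT As3+ and 9 in Nrf2 KO control cells, and of the 14 SLC39A zinc importers 10 and 12 did, again with 0 in the other libraries. SLC30A1, the exporter gene known as an MTF1 target, had folds of 5.12 and 7.18. The highest WT As3+ folds were 5.97 at SLC30A4, 5.81 at SLC30A6 and 5.47 at SLC30A3 among exporters, and 7.46 at SLC39A4, 7.37 at SLC39A13 and 7.13 at SLC39A10 among importers. The shares of the exporters and importers are near the 64.9% and 79.5% of all protein-coding genes.

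Metallothionein genes are near copies of each other, so reads can fall on more than 1 of them. Of all 75-base words, the read length, 97.1% to 100% in each metallothionein window occurred once in GRCh38, and within 500 bp of the starts 99.6% to 100% did. For MTF1 the shares were 99.4% and 100%. MT1X, the gene without a peak, had 100% in its whole window. With words of 50 bases the shares in the 9 windows were 89.6% to 99.1%. Only exact matches were counted, so a near copy with a changed base left a word unique. How reads from such near copies were placed was not tested.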

How the data were processed

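KLF4 was profiled by ChIP-seq in 4 BEAS-2B libraries. The authors aligned 75-base reads to GRCh38/hg38 with BWA, and bcl2fastq 2.17 is named in the submitters' processing notes. The peak caller is not given in the sources used here. The authors deposited 1 peak list per library, which gives a fold enrichment (a ratio to the local background), a −log10 p and −log10 q, and a score that is 10 times the −log10 q rounded down. Histone mark and input data are not analysed here.

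Fragments n and background λ were recovered from fold = (n + 1)/(λ + 1) with p as the upper Poisson tail, after a check on simulated data. Totals per library are unknown. The median fragments over a listed summit were 25, 10, 7 and 19 (WT control, WT As3+, Nrf2 KO control, Nrf2 KO As3+). The lists differ in their lowest −log10 p and their size, so these medians do not measure sequencing depth. Genes came from GENCODE 44. Other zinc genes were named by the 3 highest WT As3+ folds of their list, and SLC30A1 and MT1L were named after their values were seen. Members and lists were chosen with earlier results of these data known. Alternatives were a −log10 q of at least 5, the strongest 751 peaks of each list, other gene windows, interval overlap in place of the summit, other word windows, and 50-base words. The Nrf2 KO As3+ list, with 130 peaks, was kept whole in the second of these. Intervals (exact Clopper-Pearson or Poisson, 95%) cover counting error only. Python 3.11.15, scipy 1.17.1 and pysam 0.24.0 were used.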

Additional observations from a re-analysis of the deposited data

Results flagged for a closer look

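The As3+ minus control difference in peak number went in opposite directions in WT and Nrf2 KO cells. At the metallothionein genes it was 4 in WT cells and −11 in Nrf2 KO cells, and at MTF1 it was 3 in WT cells and −2 in Nrf2 KO cells. The difference between the genotypes was not tested, since each condition had 1 library. The whole lists moved the same way, from 751 to 29870 peaks in WT and from 76545 to 130 in Nrf2 KO cells.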

How the results depend on the processing

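With only peaks of −log10 q at least 5, the metallothionein genes had 1 peak in WT As3+ and 3 in Nrf2 KO control cells, and MTF1 had 1 and 2. The members with a peak were then 2 and 4 of 9, beside 1.39%, 36.7%, 49.3% and 0.195% of protein-coding genes in WT control, WT As3+, Nrf2 KO control and Nrf2 KO As3+ cells. With the strongest 751 peaks of the WT As3+ and Nrf2 KO control lists, 0 peaks remained at the metallothionein genes, at MTF1 and at any member. The share of all genes that keep a peak under that cut was not counted. The 0 counts under it are not read as a result about the members. Among protein-coding genes with short windows the shares were 0.369%, 30.8%, 45.1% and 0.123%. Windows beginning 2 kb or 10 kb upstream, interval overlap in place of the summit, and canonical starts left all 12 counts each within 1.5 times the main count. In summit windows of 100 bp the MRE word was present in 1 of 7 WT As3+ peaks, beside 14.5% of that list. The KLF word was present in 0 of 13 Nrf2 KO control peaks, beside 5.00%. In windows of 400 bp the MRE word was present in 4 of 7 WT As3+ peaks, beside 45.3% of the list. It was present in 11 of 13 Nrf2 KO control peaks, beside 46.6%. No paired analysis was possible because each condition had 1 library and the labels carry no replicate numbers.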
